A study of Mus musculus with 12 samples.

Results

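The 9 genes described here, Ldhc, Pgk2, Crisp2, Acrv1, Spaca1, Acr, Lyzl4, Catsper1 and Tex33, are transcripts of late meiotic and round spermatid germ cells, several of them coding for proteins of the acrosome. They were taken by symbol from a table of 53715 genes, and all 9 were among the 19815 genes that passed the filter on low counts. The set was chosen by its counts in these same libraries, so its levels and fold changes are a description and carry no test over the set. The libraries were RNA-seq of spermatogonia, the mitotic germ cells of the testis, from mice of a C57BL6/129 background. The groups of 3 libraries each were Tet1KO at 11 months, WT at 11 months, Tet1KO at 3 months and WT at 3 months of age, and the question was how loss of TET1, an enzyme that oxidises 5-methylcytosine in DNA, alters expression at the 2 ages. Each library came from 1000 cells collected by FACS and amplified by Smart-seq2, which copies whole transcripts from small numbers of cells. The labels name neither the sort markers nor the deleted part of Tet1. They also leave unsaid whether libraries of a group came from separate mice, so each p-value reflects the spread among these libraries alone, part or all of which may be technical.

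Spermatogonia enter meiosis as spermatocytes, and from the pachytene stage of meiotic prophase they switch on a large set of testis-restricted genes. These include enzymes that replace somatic forms in sperm energy metabolism and the contents of the acrosome, the secretory vesicle that grows over the round spermatid nucleus and is released at fertilization. Transcription stops as the spermatid elongates and histones give way to transition proteins and protamines, so messages made earlier are stored and translated late. None of these transcripts is a marker of spermatogonia.

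Total counts ran from 8599667 to 16323020 in Tet1KO and from 9572429 to 16248463 in WT libraries of 11 months, and from 9623251 to 18223645 in Tet1KO and from 8325159 to 13622729 in WT libraries of 3 months. Tet1 itself had 1, 17 and 5 counts in Tet1KO, against 1, 16 and 5 in WT libraries of 11 months, and 6, 11 and 18 counts in Tet1KO, against 15, 16 and 0 in WT libraries of 3 months. These levels check no genotype label, because the counts are low in every group and the deleted exons are not known. The germ cell genes Ddx4 and Dazl summed to between 1950 and 2810 CPM (counts relative to the TMM-scaled total of the library) in the 12 libraries. There, 9 genes of undifferentiated spermatogonia summed to between 323 and 589 CPM, and 7 of differentiating spermatogonia to between 697 and 1490 CPM. Markers from these 2 lists of the labelled cell type were thus present in every library. Libraries stood apart within the 3-month groups: Tet1KO replicate 2 and WT replicate 1 had 30010 and 29420 genes with a count, where the others had at most 26995, and they lay at 121 and 131 on the first principal component, where the others lay between -55.9 and 38.9. Comparisons of groups that rest on these 2 libraries are therefore given with and without them.

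Per the deposited annotation on mm10, 8 of the 9 genes are spliced and Pgk2 is a single exon. Ldhc lies on chromosome 7 (46861203 to 46878142, plus strand), Pgk2 on chromosome 17 (40207018 to 40208609, minus strand) and Crisp2 on the same chromosome (40764734 to 40807003, minus strand). Acrv1 (36693220 to 36698843, plus strand) and Lyzl4 (121577843 to 121642096, minus strand) lie on chromosome 9, and Spaca1 on chromosome 4 (34024874 to 34050191, minus strand). Acr (89568326 to 89574585, plus strand) and Tex33 (78378400 to 78395912, minus strand) lie on chromosome 15, and Catsper1 lies on chromosome 19 (5335741 to 5344153, plus strand). No exon base of these genes was shared with another annotated gene. Of the 31-base stretches of their transcripts, 1.37% for Acrv1 and 0.17% for Crisp2 also occurred in transcripts of other genes, and 0% for the other 7, Ldhc and Pgk2 with their somatic counterparts included.

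The promoters of the 9 genes were read for motifs of regulators known from this stage of spermatogenesis. Whether such motifs bear on the levels in these libraries was not tested. RefSeq windows of 250 bases upstream of the transcript start on GRCm38.p6 matched 7 of the 9 genes, all but Acr and Catsper1. The letters searched on both strands were TGACGTCA and its part TGACG for the cyclic AMP response element bound by CREM, AACNG for the MYB core of A-MYB, GTTGCC for part of the X-box bound by RFX2, ACACAC for the repeat bound by TDP-43 and TATAAA for the TATA box. TGACG lies within TGACGTCA, and none of the other motifs contains another. Shown are 4 windows that hold a motif most of the set lacks, 5′ to 3′ on the strand of the gene. That of Crisp2 is not shown because it lies far from the 5′ end of the gene in the deposited table. Capitals mark TGACG in Ldhc and Spaca1, the ACACAC repeat on either strand in Acrv1 and the X-box part in Tex33.
Ldhc, chr7:46861013-46861262, plus strand: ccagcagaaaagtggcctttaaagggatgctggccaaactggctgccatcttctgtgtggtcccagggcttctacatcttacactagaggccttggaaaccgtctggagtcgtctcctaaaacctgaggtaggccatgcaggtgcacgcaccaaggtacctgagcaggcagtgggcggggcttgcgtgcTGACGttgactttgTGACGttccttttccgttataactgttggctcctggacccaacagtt
Spaca1, chr4:34050068-34050317, minus strand: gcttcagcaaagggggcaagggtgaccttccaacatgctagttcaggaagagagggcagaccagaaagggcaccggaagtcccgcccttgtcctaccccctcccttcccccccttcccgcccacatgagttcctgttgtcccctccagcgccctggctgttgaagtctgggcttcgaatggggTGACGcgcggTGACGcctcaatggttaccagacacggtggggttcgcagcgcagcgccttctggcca
Acrv1, chr9:36692970-36693219, plus strand: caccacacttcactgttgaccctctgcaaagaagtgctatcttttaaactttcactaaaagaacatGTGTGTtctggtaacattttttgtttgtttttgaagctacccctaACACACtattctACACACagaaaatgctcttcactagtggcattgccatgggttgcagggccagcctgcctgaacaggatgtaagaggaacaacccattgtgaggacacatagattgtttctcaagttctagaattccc
Tex33, chr15:78395913-78396162, minus strand: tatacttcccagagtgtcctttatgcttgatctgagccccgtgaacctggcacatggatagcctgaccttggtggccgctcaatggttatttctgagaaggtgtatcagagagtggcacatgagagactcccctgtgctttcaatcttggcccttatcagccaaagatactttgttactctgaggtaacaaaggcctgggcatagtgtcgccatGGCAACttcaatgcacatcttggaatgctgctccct

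TGACG was found in the windows of Ldhc, at positions -61 to -57 and -47 to -43 from the start, and of Spaca1, at -67 to -63 and -57 to -53, and in none of the other 5. Among 32851 windows of all genes, 17.8% held it. The starts used for Ldhc and Spaca1 lie 60 and 124 bases inside the 5′ ends of these genes in the deposited table. Both places in Spaca1 and that at -47 in Ldhc are therefore within the deposited gene, and that at -61 in Ldhc spans its 5′ end. The full TGACGTCA was in 0 of the 7 windows and in 1.5% of all windows. Acrv1 alone held ACACAC or its reverse, at 3 places that start at -184, -139 and -127, against 14.9% of all windows. Tex33 alone held the X-box part, at -36 to -31, against 10.4% of all windows. The MYB core was in 6 of the 7 windows, all but that of Tex33, and in 74.2% of all windows, so its presence was common everywhere. The TATA letters were in the window of Crisp2 alone, 2 times, against 12.4% of all windows, and that window starts 12857 bases from the 5′ end of the gene in the deposited table. A window without these letters says nothing of whether a factor acts there.

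Among the metabolic enzymes, Ldhc codes for the lactate dehydrogenase subunit of sperm, and it was the most abundant of the set. Ldhc had 165, 292 and 71.6 CPM in Tet1KO and 106, 114 and 98.5 CPM in WT libraries of 11 months (replicates 1, 2 and 3). In the 3-month groups it had 47.3, 1590 and 200 CPM in Tet1KO and 1550, 173 and 97.4 CPM in WT libraries. The Tet1KO range enclosed the WT range at both ages, and the 2 highest libraries belonged to different genotypes.

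Pgk2, an intronless autosomal copy of the X-linked phosphoglycerate kinase gene that serves glycolysis in meiotic and later germ cells, had 68, 59.4 and 14.5 CPM in Tet1KO and 73.2, 25.8 and 16.2 CPM in WT libraries of 11 months. At 3 months it had 16.5, 167 and 36.3 CPM in Tet1KO and 184, 40.1 and 17.8 CPM in WT libraries. The groups overlapped at both ages, and at 11 months replicate 1 was high in both genotypes, which was not so for Ldhc.

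The somatic counterparts of these enzymes did not behave alike. Pgk1 was nearly level, between 39.4 and 67.1 CPM in the 12 libraries, and it was lowest in Tet1KO replicate 2 of 3 months, where Pgk2 had 167 CPM. Ldha had 12, 41.2 and 12.2 CPM in Tet1KO and 10.6, 16.3 and 15 CPM in WT libraries of 11 months, and 18, 180 and 23.3 CPM in Tet1KO and 157, 33.1 and 12.2 CPM in WT libraries of 3 months. Its highest 3 libraries were thus the highest 3 of Ldhc. Ldhb, another paralogue of Ldhc, had 14.1, 11.6 and 6.02 CPM in Tet1KO and 23.9, 26.4 and 7.02 CPM in WT libraries of 11 months. At 3 months Ldhb had 16, 19.9 and 10.6 CPM in Tet1KO and 54.9, 23.2 and 21.2 CPM in WT libraries. Its level in Tet1KO replicate 2 of 3 months, where Ldhc had 1590 CPM, was below that in WT replicate 2 of 11 months. Ldha lies 5575 bases upstream of Ldhc on the same strand (chromosome 7, 46841475 to 46855627), and Pgk1 lies on the X chromosome (106187100 to 106203699). Whether these positions bear on the levels was not tested.

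Crisp2 codes for a cysteine-rich secretory protein found in the acrosome and along the sperm tail. It had 102, 122 and 57.1 CPM in Tet1KO and 112, 52 and 36.9 CPM in WT libraries of 11 months, and 35.9, 489 and 73.8 CPM in Tet1KO and 551, 85.3 and 69.9 CPM in WT libraries of 3 months. As with Pgk2, replicate 1 of 11 months was high in both genotypes. The related Crisp1 and Crisp4 of the epididymis never exceeded 0.35 CPM, and Crisp3 had 0 counts in all 12 libraries.

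Of the acrosomal proteins, Acrv1 (SP-10) is a protein of the acrosomal matrix and membranes, and Spaca1 is an acrosomal membrane protein that mouse spermatids need to shape the acrosome. Acrv1 had 1.29, 21.2 and 9.52 CPM in Tet1KO and 2.59, 4.49 and 5.81 CPM in WT libraries of 11 months, and 2.27, 61.2 and 7.69 CPM in Tet1KO and 81.1, 17.6 and 3.62 CPM in WT libraries of 3 months. Spaca1 had 4.99, 27.1 and 15.5 CPM in Tet1KO and 6.31, 8.58 and 9.65 CPM in WT libraries of 11 months, and 5.99, 76.8 and 17.1 CPM in Tet1KO and 85, 27.7 and 11.4 CPM in WT libraries of 3 months. For both genes, replicate 1 was the lowest library of its group at 11 months in each genotype, whereas for Pgk2 it was the highest.

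Acr codes for acrosin, the serine protease stored in the acrosome as a precursor, and Lyzl4 for a lysozyme-like protein of sperm. Acr had 1.79, 13.5 and 1.17 CPM in Tet1KO and 1.51, 3.97 and 2.85 CPM in WT libraries of 11 months, and 0.827, 60 and 3.94 CPM in Tet1KO and 37, 5.95 and 1.07 CPM in WT libraries of 3 months. Lyzl4 had 1.54, 8.94 and 2.01 CPM in Tet1KO and 1.83, 1.23 and 1.75 CPM in WT libraries of 11 months, and 0.93, 19.9 and 3.65 CPM in Tet1KO and 22.5, 3.8 and 3.89 CPM in WT libraries of 3 months. Replicate 2 of Tet1KO was several times its group mates at 11 months for both genes. Acr was the only gene of the set whose highest library was Tet1KO replicate 2 of 3 months other than Ldhc. The antisense gene Lyzl4os lies within the span of Lyzl4 without sharing exon bases. It had 150 and 158 counts in Tet1KO replicate 2 and WT replicate 1 of 3 months and at most 30 elsewhere, and without strand its reads cannot be told apart from intronic reads of Lyzl4. The relative Lyzl6 followed the same libraries, with 16.6 CPM in Tet1KO replicate 2 of 11 months, 40.5 CPM in Tet1KO replicate 2 and 48.8 CPM in WT replicate 1 of 3 months, and 0.568 to 10.9 CPM in the other 9. Lyzl1 had 33.4 CPM in Tet1KO replicate 2 and 52.9 CPM in WT replicate 1 of 3 months and at most 11.7 CPM elsewhere. Lyz2 did not follow them, with 26 and 50.8 CPM in these 2 libraries and its highest level, 53.4 CPM, in Tet1KO replicate 3 of 3 months.

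Catsper1, the pore subunit of the calcium channel of the sperm tail, was the scarcest. Its counts were 5, 14 and 8 in Tet1KO and 2, 10 and 1 in WT libraries of 11 months, and 0, 52 and 4 in Tet1KO and 47, 12 and 8 in WT libraries of 3 months. In CPM this was 0.308, 1.41 and 0.668 in Tet1KO and 0.126, 0.583 and 0.11 in WT libraries of 11 months. The 3-month groups had 0, 2.8 and 0.385 CPM in Tet1KO and 3.55, 1.23 and 1.07 CPM in WT libraries. The count of 0 allows up to 3 counts, or 0.31 CPM, in that library, a limit that covers counting error only because the reads carry no molecular identifiers. Counting error is therefore large for Catsper1 at every level outside the 2 highest libraries.

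Tex33, a testis-expressed gene, had 3.76, 17.1 and 1.67 CPM in Tet1KO and 7.07, 2.8 and 1.64 CPM in WT libraries of 11 months, and 4.55, 54.8 and 11.2 CPM in Tet1KO and 61.8, 9.03 and 5.1 CPM in WT libraries of 3 months. It shared with the other 8 genes the same 2 highest libraries. In all 9 genes these were WT replicate 1 and Tet1KO replicate 2 of 3 months, and in 5 the lowest library was Tet1KO replicate 1 of 3 months, from the same group.

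**Figure D1:**
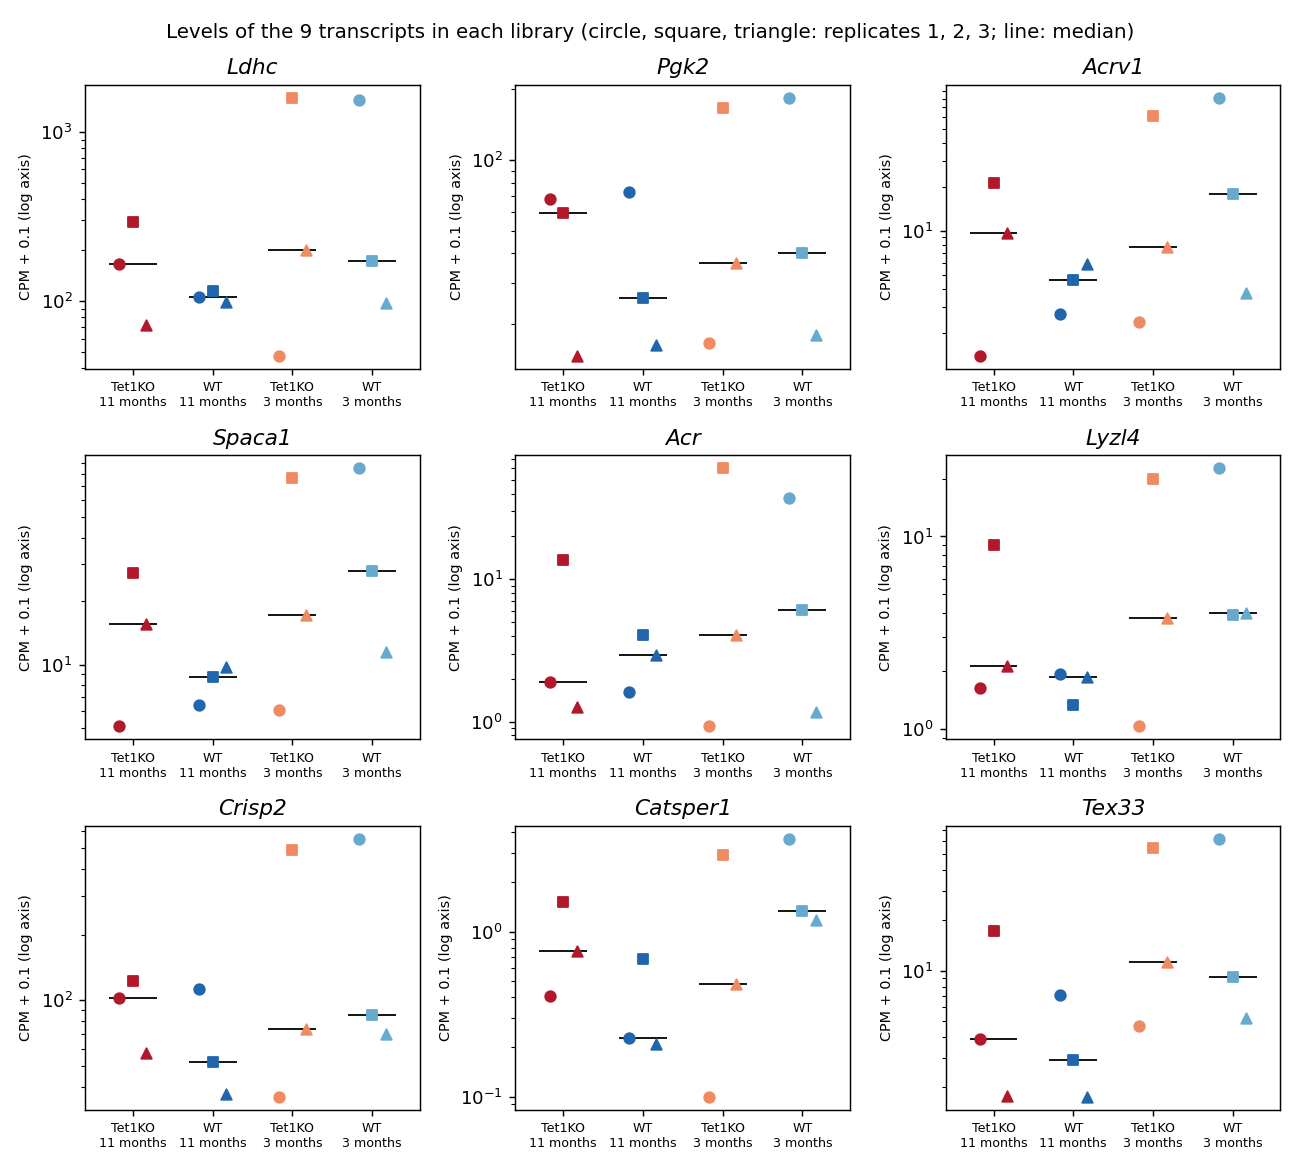
Level of each of the 9 transcripts in each library (CPM with 0.1 added, log axis), with 1 point per library and a line at the median of each group of 3. Tet1KO replicate 2 and WT replicate 1 of 3 months are the 2 highest points in all 9 panels, and Ldhc reaches 1590 and 1550 CPM there.

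Per kilobase of exon, over all 12 libraries, Ldhc averaged 237 CPM, Crisp2 81.6, Pgk2 37.6, Spaca1 15.5, Tex33 12.1, Acr 7.1, Acrv1 4.99, Lyzl4 4.27 and Catsper1 0.495 CPM per kilobase. Ldhc stood above Crisp2, Crisp2 above Pgk2 and Lyzl4 above Catsper1 in 12 of 12 libraries. Pgk2 stood above Spaca1 and Spaca1 above Tex33 in 11 of 12, and Tex33 above Acr in 10 of 12. Acr and Acrv1 kept their order in 8 of 12 libraries and Acrv1 and Lyzl4 in 6 of 12, so these neighbours did not differ beyond their spread. Summed over the set, the 9 genes took 0.0347, 0.0652 and 0.0158% of all counts in Tet1KO and 0.0302, 0.023 and 0.0165% in WT libraries of 11 months, and 0.0115, 0.257 and 0.0356% in Tet1KO and 0.25, 0.0377 and 0.0189% in WT libraries of 3 months. Ldhc alone gave between 34.1 and 63.1% of the summed CPM of the set.

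At 11 months, Tet1KO against WT, the fitted fold changes of all 9 transcripts were above 0 and none passed the test. Group means were 176 ± 111 CPM in Tet1KO and 106 ± 7.72 CPM in WT for Ldhc, 15.9 ± 11.1 CPM in Tet1KO and 8.18 ± 1.7 CPM in WT for Spaca1, and 4.16 ± 4.14 CPM in Tet1KO and 1.6 ± 0.329 CPM in WT for Lyzl4 (SD, n = 3 each). The Tet1KO groups spread more widely than the WT groups for these 3 genes, whereas Pgk2 and Crisp2 alone of the set went the other way. Their SD was 28.7 CPM in Tet1KO and 30.5 CPM in WT for Pgk2, and 33.4 and 39.6 CPM for Crisp2. The groups overlapped for all 9, where 5.36% of all tested genes had groups that did not. The log2 fold changes ran from 0.30 ± 1.03 (SE) for Pgk2 to 1.42 ± 1.25 for Catsper1, with 0.73 ± 1.21 for Ldhc, 0.95 ± 0.95 for Spaca1 and 1.36 ± 1.10 for Lyzl4. The median of the set was 0.95, that of all tested genes was 0.02, and 53.8% of all genes had a fold change above 0. In edgeR's quasi-likelihood test the adjusted p was 1 for each of the 9, and 0 of 19815 genes (0%) passed an adjusted p of 0.05, with 326 genes (1.65%) at an unadjusted p under 0.05. DESeq2 called 3 genes and limma-voom 0, and no gene of the set was among them.

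The direction at 11 months rested on few libraries. In the same comparison all 8 leukocyte genes had fold changes above 0 (median 0.72) and all 7 peritubular myoid genes below 0 (median -1.98), and their part in the levels of the set was not tested. Replicate 2 of Tet1KO was the highest library of that age for 8 of the 9 genes, all but Pgk2, and without it the median of the set was 0.16. Same-numbered libraries of that age deviated together, though the labels name no pairs. Within these pairs, taken from the data, all 9 genes were higher in Tet1KO at number 2, 6 at number 3 and 3 at number 1. The Ldhc log2 ratio of Tet1KO over WT was 0.65, 1.36 and -0.46 at numbers 1, 2 and 3, that of Spaca1 was -0.34, 1.66 and 0.69, and that of Tex33 was -0.91, 2.61 and 0.02. Catsper1 was above 0 in all 3 pairs, with 1.29, 1.27 and 2.61, on counts of at most 14. A fit with the pairs as blocks within these 6 libraries also called 0 of 18289 genes, with 627 at an unadjusted p under 0.05, and gave a median of 0.57 over the 8 genes that passed its filter.

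At 3 months, Tet1KO against WT, the fold changes lay on both sides of 0. Group means were 612 ± 850 CPM in Tet1KO and 605 ± 815 CPM in WT for Ldhc and 33.3 ± 38.1 CPM in Tet1KO and 41.4 ± 38.6 CPM in WT for Spaca1 (SD, n = 3 each). The SD was about as large as the mean in both groups, since each held 1 of the 2 libraries that stand apart. The log2 fold changes ran from -0.83 ± 1.16 for Catsper1 to 0.55 ± 1.47 for Acr, with a median of -0.24 (all genes -0.02), with 46.8% of all genes above 0. All groups overlapped, as did those of all but 6.94% of tested genes. Of all genes, 0% passed an adjusted p of 0.05 in edgeR and 1.14% had an unadjusted p under 0.05 (225 genes), DESeq2 called 2 genes and limma-voom 0, and none was of the set. Without both libraries, 8 of the 9 fold changes were below 0 and Tex33 was at 0.16 ± 0.98, with a median of -0.57. Leaving out only Tet1KO replicate 2 gave a median of -2.13, and leaving out only WT replicate 1 gave 1.34, so a single library turned the sign of the comparison.

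With age in Tet1KO, 11 against 3 months, all 9 fold changes were below 0, but the median of the set was 0.84 when Tet1KO replicate 2 of 3 months alone was left out. Group means were 176 ± 111 CPM at 11 and 612 ± 850 CPM at 3 months for Ldhc, and 5.47 ± 6.92 CPM at 11 and 21.6 ± 33.3 CPM at 3 months for Acr (SD, n = 3 each). The log2 fold changes ran from -2.00 ± 1.54 for Acr to -0.49 ± 1.18 for Catsper1, with a median of -1.09 (all genes -0.01, 48% of them above 0). The groups overlapped for all 9, where 6.2% of tested genes had groups that did not. In edgeR 0% of genes passed an adjusted p of 0.05 and 2.33% (462 genes) had an unadjusted p under 0.05, DESeq2 called 7 genes and limma-voom 0, and none of them was of the set. Without Tet1KO replicate 2 and WT replicate 1 of 3 months the median was 0.84, with 8 of 9 fold changes above 0. These included Crisp2 at 0.77 ± 0.49 and Pgk2 at 0.84 ± 0.76. The left-out libraries were the 2 highest for all 9 genes, so the direction of this shift was fixed in advance, in WT as in Tet1KO.

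With age in WT, 11 against 3 months, all 9 fitted fold changes were below 0, and here 3 of them had groups that did not overlap. Spaca1 averaged 8.18 ± 1.7 CPM at 11 and 41.4 ± 38.6 CPM at 3 months, Lyzl4 1.6 ± 0.329 CPM at 11 and 10 ± 10.7 CPM at 3 months, and Catsper1 0.273 ± 0.269 CPM at 11 and 1.95 ± 1.39 CPM at 3 months (SD, n = 3 each). For these 3 genes every WT library of 11 months lay below every WT library of 3 months. Non-overlap in that direction was found for 6.12% of all tested genes, and for 11.5% in either direction. The log2 fold changes were -2.35 ± 0.98 for Spaca1, -2.65 ± 1.13 for Lyzl4 and -2.75 ± 1.27 for Catsper1, and over the set they ran from -3.00 ± 1.40 for Acrv1 to -1.07 ± 1.04 for Pgk2. Unadjusted p was 0.0375 for Spaca1 and 0.0395 for Lyzl4, where 5.67% of all genes (1124) were under 0.05, and edgeR's adjusted p for the 9 was between 0.774 and 0.848. By edgeR, DESeq2 and limma-voom 0 genes (0%) passed an adjusted p of 0.05. The median of -2.51 (all genes -0.06, 43.6% of them above 0) became -0.87 without both libraries, with Pgk2 at 0.41 ± 0.75 and the other 8 genes still below 0, from -0.21 ± 0.48 for Crisp2 to -1.98 ± 1.18 for Catsper1.

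The Tet1KO effect at 11 months minus that at 3 months was above 0 for all 9 genes, where 55.6% of all genes were above 0, and it passed no test. It ran from 0.40 ± 2.12 for Acr to 2.26 ± 1.71 for Catsper1, with a median of 1.04 (all genes 0.06). Without both libraries the median was 1.53 and all 9 remained above 0, Catsper1 at 3.92 ± 1.80 and Lyzl4 at 2.10 ± 1.12 among them. It was -0.80 when WT replicate 1 of 3 months alone was left out. By edgeR 0% of genes passed an adjusted p of 0.05 (311 genes, 1.57%, at an unadjusted p under 0.05), and DESeq2 and limma-voom called 0. These 5 comparisons share libraries, so they are not independent of each other.

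**Figure D2:**
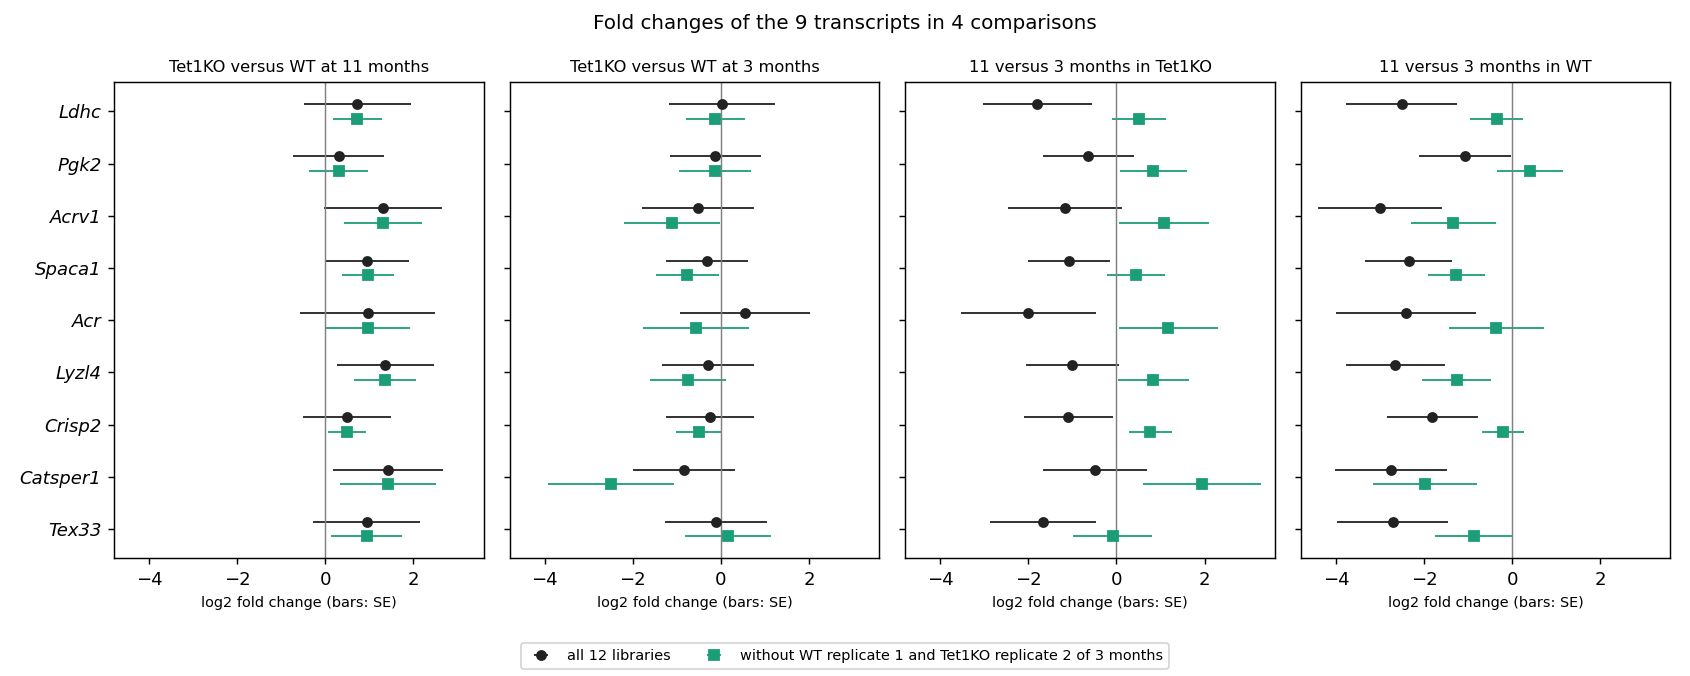
Log2 fold change of each of the 9 transcripts (x axis, bars are SE) in 4 comparisons, from the fit of all 12 libraries (circles) and without Tet1KO replicate 2 and WT replicate 1 of 3 months (squares). At 11 months the points keep their place and the bars shorten, whereas in the comparison of ages in Tet1KO 8 of the 9 squares lie above 0 and all circles below.

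Across the 12 libraries the 9 transcripts varied together. The set's mean log2 CPM was 2.85, 4.66 and 2.81 in Tet1KO and 2.96, 2.92 and 2.58 in WT libraries of 11 months, and 2.05, 6.3 and 3.64 in Tet1KO and 6.39, 4.05 and 3.04 in WT libraries of 3 months. Over the 36 pairs of genes, Pearson's r of log2 CPM ran from 0.59 to 0.99 with a median of 0.865, highest for Acrv1 with Spaca1. These r share the same 12 libraries, and the 2 that stand apart carry much of them. The genes also varied more than others of like level: the SD of log2 CPM over the libraries was 1.6 for Ldhc, against a median of 0.21 for 995 genes of like level, 1.82 for Acrv1 against 0.41, and 1.39 for Catsper1 against 1.01. Of the genes of like level, between 79.6% (Catsper1) and 99.9% (Ldhc) had a lower SD than the gene of the set. The set was chosen by its counts in these libraries, so this spread and the shared variation are descriptions and carry no test. In these bulk samples fewer cells of a type and less RNA per cell cannot be told apart.

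Within that shared pattern the 9 genes differed in how they followed other germ cell genes. Over the 10 libraries without Tet1KO replicate 2 and WT replicate 1 of 3 months, r with the mean of 10 elongating spermatid genes (protamines, transition proteins and tail genes) was 0.95 for Pgk2 and 0.81 for Crisp2. It was 0.54 for Tex33, 0.48 for Ldhc, 0.2 for Acr, 0.11 for Lyzl4, 0.02 for Catsper1, -0.2 for Spaca1 and -0.24 for Acrv1. With the mean of 24 other acrosome genes Pgk2 and Crisp2 came last, with r of 0.95 for Acr, 0.88 for Ldhc, 0.79 for Acrv1 and Spaca1, 0.78 for Lyzl4, 0.7 for Tex33, 0.59 for Catsper1, 0.53 for Crisp2 and 0.49 for Pgk2. Over all 12 libraries the contrast was smaller, with r of 0.91 for Pgk2 and 0.29 for Acrv1 against the elongating list and of 0.82 for Pgk2 and 0.92 for Acrv1 against the acrosome list. These are descriptions over 10 or 12 libraries, with no test.

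**Figure D3:**
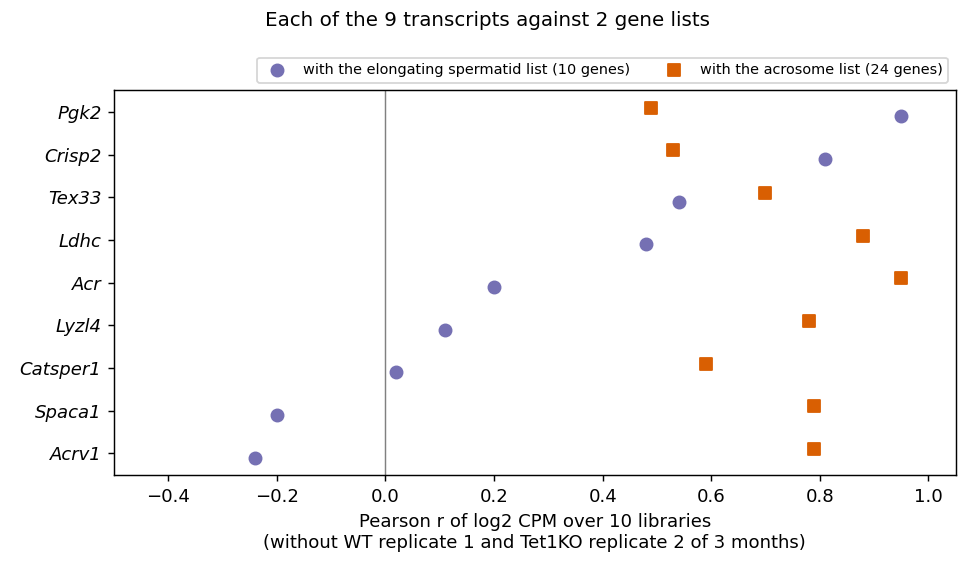
Pearson's r of each transcript's log2 CPM with the mean of 10 elongating spermatid genes (circles) and of 24 acrosome genes (squares), over the 10 libraries other than Tet1KO replicate 2 and WT replicate 1 of 3 months. Pgk2 and Crisp2 have the highest circles, at 0.95 and 0.81, and Acrv1 and Spaca1 the lowest, at -0.24 and -0.2.

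Ratios between these genes also differed among the libraries. The ratio of Pgk2 to Acrv1 CPM was 52.6, 2.8 and 1.52 in Tet1KO and 28.3, 5.74 and 2.79 in WT libraries of 11 months, and 7.27, 2.73 and 4.73 in Tet1KO and 2.26, 2.27 and 4.93 in WT libraries of 3 months. Replicate 1 of both genotypes at 11 months thus stood far above the other 10. The ratio of Crisp2 to Spaca1 did the same, at 20.5 in Tet1KO and 17.7 in WT replicate 1 of 11 months and between 3.08 and 6.48 elsewhere. Those libraries also had high elongating spermatid transcripts: the 10 genes summed to 2890, 1310 and 459 CPM in Tet1KO and 3120, 650 and 340 CPM in WT libraries of 11 months, and to 787, 1690 and 961 CPM in Tet1KO and 3390, 1040 and 578 CPM in WT libraries of 3 months. Prm2, a protamine gene, had 786 and 841 CPM in Tet1KO and WT replicate 1 of 11 months and 840 CPM in WT replicate 1 of 3 months. Ldhc by contrast had 165 and 106 CPM in the 11-month pair and 1550 CPM in the 3-month library. The ratio of Ldhc to Pgk2 was lowest in the 11-month pair, at 2.43 in Tet1KO and 1.44 in WT, and highest in Tet1KO replicate 2 and WT replicate 1 of 3 months, at 9.51 and 8.41.

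**Figure D4:**
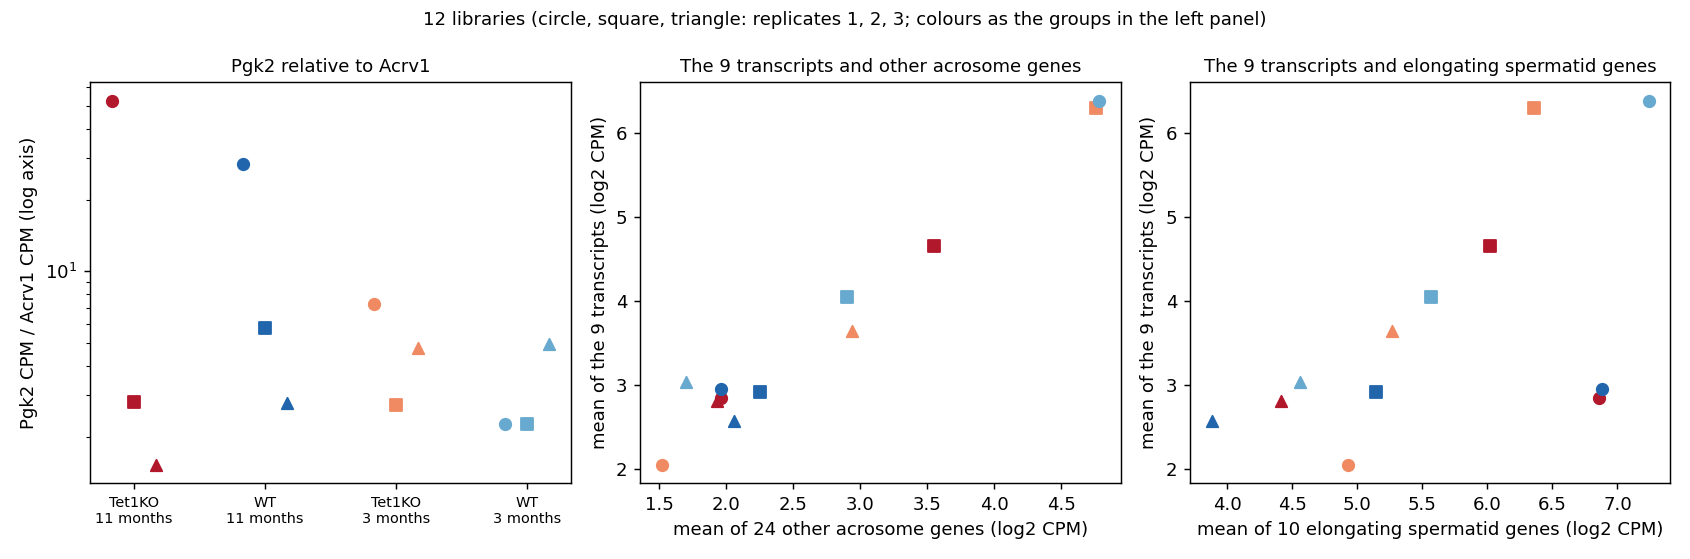
Left, the ratio of Pgk2 to Acrv1 CPM in each library (log axis); middle and right, the mean log2 CPM of the 9 transcripts against that of 24 acrosome and of 10 elongating spermatid genes, 1 point per library. Replicate 1 of Tet1KO and of WT at 11 months have the highest ratios, 52.6 and 28.3. In the right panel they lie at elongating means of 6.86 and 6.88 with set means of 2.85 and 2.96, and WT replicate 1 of 3 months lies farther right, at 7.24, with a set mean of 6.39.

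Genes of related function were described from lists that do not contain the 9. The 24 other acrosome genes had a median log2 fold change of 0.44 at 11 months for Tet1KO against WT, with 20 above 0 and 4 below, but without Tet1KO replicate 2 of 11 months the median was -0.01, with 12 above and 12 below. At 3 months it was 0.08, with 14 above and 10 below. With age the median was -0.93 in Tet1KO, with 23 below 0 and 1 above, and -1.58 in WT, with all 24 below. Without Tet1KO replicate 2 and WT replicate 1 of 3 months these became 0.39 in Tet1KO, with 17 above 0, and -0.15 in WT, with 15 below 0, and leaving out Tet1KO replicate 2 alone also gave 0.39 in Tet1KO. None of the 24 passed an adjusted p of 0.05 in any comparison by edgeR. With age in WT 4 had an unadjusted p under 0.05, where 5.67% of all genes did. The list was uneven in level and spread. Agfg1, whose product acts in vesicle fusion at the forming acrosome, lay between 93.7 and 124 CPM in every library, whereas Zpbp, a zona pellucida binding protein gene, had 163 and 114 CPM in Tet1KO replicate 2 and WT replicate 1 of 3 months and 20.2 to 50.8 CPM in the other 10.

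The metabolic list held 10 germ cell forms of enzymes and cytochrome c. At 11 months 9 of the 10 were above 0 for Tet1KO against WT (median 0.59), and 5 of 10 without Tet1KO replicate 2 of that age (median -0.18). At 3 months 5 were above and 5 below (median 0.06). With age 8 of 10 were below 0 in Tet1KO (median -0.62) and 9 of 10 in WT (median -1.10), and none passed an adjusted p of 0.05 by edgeR in any comparison. Without the 2 libraries of 3 months that stand apart, 8 of 10 were above 0 with age in Tet1KO (median 0.51, as without Tet1KO replicate 2 alone) and 6 of 10 below 0 in WT (median -0.32). Gk2, a testis glycerol kinase gene, had 1.54, 59.1 and 9.19 CPM in Tet1KO and 4.16, 12.5 and 18.5 CPM in WT libraries of 11 months, and 7.03, 236 and 28.3 CPM in Tet1KO and 212, 24.5 and 4.29 CPM in WT libraries of 3 months. It was low in replicate 1 of both genotypes at 11 months, as Acrv1 was. Cyct, the testis cytochrome c gene, had 32.8, 29.3 and 46.2 CPM in Tet1KO and 29.3, 22.5 and 45.9 CPM in WT libraries of 11 months, and 44.3, 79.9 and 46.4 CPM in Tet1KO and 83.8, 47.3 and 86 CPM in WT libraries of 3 months. With age in WT its groups did not overlap, with a log2 fold change of -1.16 ± 0.34 and an unadjusted p of 0.00524 (edgeR's adjusted p = 0.774). Leaving both libraries out gave -1.04 ± 0.33, with an unadjusted p of 0.00893 (edgeR's adjusted p = 0.998). With age in WT, 11.5% of all tested genes had groups that did not overlap. In edgeR's fit of all 12 libraries, 5.67% of genes had an unadjusted p under 0.05 in that comparison.

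The CatSper list held 12 genes of the channel beside Catsper1. Catsperz, an auxiliary subunit gene, had 10.2, 32 and 13.8 CPM in Tet1KO and 11.9, 11.3 and 16 CPM in WT libraries of 11 months, and 8.06, 164 and 21.9 CPM in Tet1KO and 168, 18 and 17.7 CPM in WT libraries of 3 months. At 11 months 10 of the 12 were above 0 for Tet1KO against WT (median 0.39), and 5 of the 12 without Tet1KO replicate 2 of that age (median -0.16). At 3 months 4 of 12 were above 0 (median -0.05). With age 11 of 12 were below 0 in Tet1KO (median -1.06) and 12 of 12 in WT (median -1.66), and none passed an adjusted p of 0.05 by edgeR. Without the 2 libraries, 10 of 12 were above 0 with age in Tet1KO (median 0.31, as without Tet1KO replicate 2 alone) and 8 of 12 below 0 in WT (median -0.42). Efcab9, the calcium sensor subunit gene, had a log2 fold change of -2.87 ± 1.19 with age in WT, with groups that did not overlap and an unadjusted p of 0.0358 (edgeR's adjusted p = 0.774). In the fit of 10 libraries it was -1.53 ± 0.84, with an unadjusted p of 0.0985 (edgeR's adjusted p = 0.998). Over all 12 libraries, 11.5% of tested genes had groups that did not overlap with age in WT, and 5.67% had an unadjusted p under 0.05 by edgeR.

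Regulators of this programme differed in how far their levels moved. The 8 genes on that list summed to 1070, 824 and 1130 CPM in Tet1KO and 1060, 967 and 972 CPM in WT libraries of 11 months, and to 1100, 1180 and 1140 CPM in Tet1KO and 1260, 979 and 1210 CPM in WT libraries of 3 months. That sum was mostly Taf7l, which with Tbpl1 belongs to the germ cell transcription machinery and averaged 719 CPM. Taf7l and the bHLH factor gene Tcfl5 each differed by 1.78-fold between their highest and lowest libraries. Of the factors whose motifs were searched, Crem had 138 and 159 CPM in Tet1KO replicate 2 and WT replicate 1 of 3 months and 29.7 to 50.3 CPM in the other 10. Rfx2 had 21.1 and 20 CPM in these 2 libraries and 4.7 to 12.9 CPM in the other 10. Mybl1, which codes for A-MYB, ran from 4.72 to 26.6 CPM and was highest in WT replicate 1 of 3 months. The widest range was that of Fhl5, which codes for a coactivator of CREM, from 3.22 to 78.2 CPM, with 65.2 and 78.2 CPM in the same 2 libraries. Their median log2 fold change was -0.13 at 11 and 0.01 at 3 months for Tet1KO against WT, and -0.58 in Tet1KO and -0.19 in WT with age (-0.06 and 0.03 without the 2 libraries), with none past an adjusted p of 0.05 by edgeR. Tbpl1 had 259 and 245 CPM in Tet1KO replicate 2 and WT replicate 1 of 3 months and 125 to 166 CPM in the other 10. Taf7l was among its lowest in those libraries, at 594 and 628 CPM, but was lower still in Tet1KO replicate 2 of 11 months, at 509 CPM. The set's mean followed the regulators' mean with r of 0.81 over 12 libraries and 0.01 over the 10.

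Over the same 12 libraries the set's mean log2 CPM had r of 0.98 with the acrosome list, 0.97 with the metabolic list, the CatSper list and 12 tested pachytene spermatocyte genes, and 0.59 with the elongating spermatid list. Without the 2 libraries farthest from the median it was 0.94 for the acrosome, 0.88 for the metabolic and the CatSper, 0.89 for the pachytene and 0.32 for the elongating list. Spearman's rho over the 12 was 0.82 for the acrosome, 0.84 for the metabolic, 0.80 for the CatSper, 0.78 for the pachytene and 0.64 for the elongating list. Among somatic lists, r over the 12 was 0.58 for Sertoli, 0.43 for peritubular myoid and 0.24 for leukocyte genes. Without the same 2 libraries it was 0.18 for Sertoli, -0.24 for peritubular myoid and 0.39 for leukocyte genes. For undifferentiated and differentiating spermatogonia r over the 12 was 0.26 and -0.33. With total count r was 0.27, and with the number of genes with a count it was 0.89, and 0.55 without the same libraries. The points share their libraries and scaling, and no test was made.

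Levels of other cell types in the sort were read beside the set. Meig1, a gene of meiotic and later germ cells, had 126, 140 and 57.5 CPM in Tet1KO and 105, 49.8 and 65 CPM in WT libraries of 11 months, and 48.5, 602 and 94.7 CPM in Tet1KO and 751, 102 and 74.9 CPM in WT libraries of 3 months. The pachytene spermatocyte genes as a whole summed to 229 to 408 CPM in Tet1KO and 229 to 276 CPM in WT libraries of 11 months, and to 195 to 1270 CPM in Tet1KO and 238 to 1390 CPM in WT libraries of 3 months. Of these, 11 of 12 tested were above 0 for Tet1KO against WT at 11 months (median 0.51) and 12 of 12 below 0 with age in both genotypes, with none past an adjusted p of 0.05 by edgeR. Without Tet1KO replicate 2 of 11 months, 6 of 12 were above 0 in the first comparison. Without the 2 libraries of 3 months, 11 of 12 were above 0 with age in Tet1KO (median 0.41, as without Tet1KO replicate 2 alone) and 8 of 12 below 0 in WT (median -0.27). For Tet1KO against WT at 3 months a single library turned the sign of all 4 lists. Without Tet1KO replicate 2 the medians were -1.72 for the acrosome, -0.94 for the metabolic, -1.71 for the CatSper and -1.61 for the pachytene list. Without WT replicate 1 they were 1.34 for the acrosome, 0.78 for the metabolic, 1.20 for the CatSper and 1.35 for the pachytene list.

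The elongating spermatid genes differed from the set in one comparison of ages in the fit of all 12 libraries: 10 of 10 were above 0 in Tet1KO (median 0.40), where all 9 of the set were below, and 9 of 10 were below 0 in WT (median -0.34). Without the 2 libraries of 3 months the lists no longer differed in sign in Tet1KO, with a median of 0.84 for both and 8 of the set's 9 genes above 0. In WT the lists then differed in sign, with 10 of 10 elongating genes above 0 (median 0.76) and 8 of the set's 9 below 0 (median -0.87). Without Tet1KO replicate 1 of 11 months 8 of the 10 elongating genes were below 0 in Tet1KO (median -0.35), so the direction rested on single libraries, and no difference between the lists was tested.

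Sertoli, peritubular and leukocyte markers were found in every library at levels that differed between libraries. The 10 Sertoli cell genes, 9 of them tested, summed to 23.7 to 30.1 CPM in Tet1KO and 11.5 to 139 CPM in WT libraries of 11 months, and to 21.5 to 79.3 CPM in Tet1KO and 87.3 to 274 CPM in WT libraries of 3 months, highest in WT replicate 1 of 3 months. Fitted fold changes of Tet1KO over WT were below 0 for 8 of the 9 tested at 11 months and for 9 of 9 at 3 months, with none past an adjusted p of 0.05 by edgeR. Without WT replicate 2 of 11 months, 4 of 9 were below 0 at that age. The 7 peritubular myoid genes summed to 23.2 to 55.4 CPM in Tet1KO and 72.2 to 244 CPM in WT libraries of 11 months, and to 79.6 to 375 CPM in Tet1KO and 98.6 to 362 CPM in WT libraries of 3 months. At 11 months all 7 were below 0 for Tet1KO against WT, with a median of -1.98 and 6 of the 7 at an unadjusted p under 0.05, where 1.65% of all genes were. With age in Tet1KO all 7 were also below 0, with a median of -2.74 and 6 at an unadjusted p under 0.05 (2.33% of all genes), and the median was -2.38 without the 2 libraries of 3 months that stand apart. None passed an adjusted p of 0.05 by edgeR, and DESeq2 called Tpm2 in both comparisons and Myl9 with age. The 8 leukocyte genes summed to 244 to 543 CPM in Tet1KO and 50 to 541 CPM in WT libraries of 11 months, and to 166 to 331 CPM in Tet1KO and 154 to 322 CPM in WT libraries of 3 months. For Tet1KO against WT at 11 months all 8 were above 0 (median 0.72), and 6 of 8 without WT replicate 2 (median 0.19), again with none past an adjusted p of 0.05 by edgeR. In WT replicate 1 of 11 months their 541 CPM, of which Cd74 gave 459, exceeded the 346 CPM of the 9 genes of undifferentiated spermatogonia. In that library 7 genes of differentiating spermatogonia summed to 1290 CPM, and Ddx4 with Dazl to 2290 CPM. Amh of Sertoli cells was at 0 in 2 libraries. The Leydig cell enzymes Cyp17a1 and Hsd3b1 were at 0 in 11 of 12 libraries each, but Star of the same list had 2.17 to 5.86 CPM in the 12 libraries. Insl3, also of that list, had 10.3 CPM in Tet1KO replicate 2 of 3 months and at most 2.59 CPM elsewhere, and it shares 404 exon bases with Jak3 on the same strand. The highest sum of Leydig genes was 13.2 CPM, in Tet1KO replicate 2 of 3 months. The part of these cells in the levels of the 9 transcripts was not tested, and the same holds for spermatocytes and spermatids in the sorted samples.

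The genes whose log2 CPM followed the set most closely over the 12 libraries, of 17520 genes with a mean of at least 1 CPM, were Lypd4, Tex47, Cmtm2a, Tex22, 1700014D04Rik, Gm45711, Cmtm2b, Spaca7, Cmtm1 and Gykl1, with Pearson's r of 0.98 to 0.99. Lypd4 had 9.73, 39.6 and 10.8 CPM in Tet1KO and 9.97, 13.1 and 9.98 CPM in WT libraries of 11 months, and 5.58, 184 and 28.2 CPM in Tet1KO and 156, 23.5 and 8.59 CPM in WT libraries of 3 months. Without the 2 highest libraries r of these 10 genes was 0.91 to 0.96. Cmtm1, Cmtm2a and Gm45711 share exon bases on the same strand, 1509 of them between Cmtm1 and Gm45711, and since fragments that overlap several genes were counted for each, their values are not separate. Of the 10, 1 was also among the 10 closest by Spearman's rho, and 4 when the 2 libraries were left out.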

How the data were processed

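The authors deposited 1 table of raw counts for the 12 libraries. Per the file headers, fragments were counted per gene with featureCounts 1.6.2 on GENCODE vM17, without strand, with a mapping quality minimum of 30, with multi-mapping fragments allowed and with a fragment that overlaps several genes counted for each. HISAT2, SAMtools and the build mm10 are named in the submitters' processing notes, with no versions of the tools. Symbols came from GENCODE vM21 by gene identifier, for 53620 of 53715 genes.

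From the deposited counts, filterByExpr left 19815 genes. CPM are counts relative to TMM-scaled library totals, log2 CPM used a prior count of 2, and levels per length divide CPM by the exon length in the table. The model in edgeR 4.0.16 (R 4.3.3) held all 12 libraries and a mean for each group, and contrasts between groups were tested with the two-sided robust quasi-likelihood F test, adjusted by Benjamini-Hochberg over all genes at 0.05. SE were derived from the F statistic. The model was checked on simulated counts.

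The 9 genes, the gene lists and the alternatives were chosen with earlier results of these data known. Beside the 9 genes, the rule for named genes took up to 3 genes of each list with the highest mean CPM, the paralogues of the 9, and the 10 genes whose log2 CPM has the highest Pearson's r with the set's mean. Examples among these, Lyzl4os, Crem, Rfx2, Mybl1, Fhl5, the somatic markers at 0 counts and the genes called by DESeq2 were chosen after their values were seen. Promoter windows are RefSeq's on GRCm38.p6.

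Libraries of a group differed by more than counting noise (chi-square over degrees of freedom 10.9 or more), and each was counted as 1 replicate. Same-numbered libraries were checked for pairing by the correlation of their deviations from the group means. It was 0.37, 0.17 and 0.33 between genotypes at 11 months, so these were taken as pairs from the data, and -0.59, -0.18 and 0.30 at 3 months, so those were not. Between ages it was 0.08 to 0.47 in Tet1KO and 0.06 to 0.17 in WT, with at least 1 pair of numbers at 0.1 or below in each. The labels name no pairs, and with 3 libraries per group this check cannot establish them. The labels' library codes begin with DY for 1 Tet1KO and 1 WT library of 3 months and with AK for the other 10, and this prefix was a covariate in an alternative fit. Other alternatives used DESeq2 1.42.0, limma-voom (limma 3.58.1) with sample weights, other scaling and filters, only the compared groups, 0.01 as the threshold, and the libraries left out 1 at a time. Leaving out libraries for the gene lists, Cyct and Efcab9 was added after the data were seen.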

Additional observations from a re-analysis of the deposited data

How the results depend on the processing

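Counts of genes past an adjusted p of 0.05 by edgeR remained 0 in all 5 comparisons under every scaling, filter, block, covariate, group subset and left-out library run, and by limma-voom. DESeq2 called 3 genes for Tet1KO against WT at 11 months (S100a8, S100a9 and Tpm2), 2 at 3 months (S100a8 and S100a9) and 7 with age in Tet1KO, none of them of the 9, and 0 with age in WT and for the difference of effects. Left-out libraries moved the median log2 fold change of the set most, so it depended on single libraries. Why those libraries differed was not tested. The median ran from 0.16 (without Tet1KO replicate 2 of 11 months) to 1.38 for Tet1KO against WT at 11 months and from -2.13 to 1.34 at 3 months. With age it ran from -2.15 to 0.84 in Tet1KO and from -2.96 to -0.87 in WT, and for the difference of effects from -0.80 to 3.03. Without Tet1KO replicate 2 and WT replicate 1 of 3 months together it was 0.84 with age in Tet1KO, where the sign turned, and -0.87 in WT. The replicate block in the fit of all 12 libraries gave medians of 0.72 at 11 months, -0.52 at 3 months, -0.93 and -2.45 with age in Tet1KO and in WT, and 0.66 for the difference, and in the 6 libraries of 11 months, a fit chosen after seeing the data, 0.57. It changed no call. With the code prefix as a covariate the medians were 0.95, -0.51, -1.37, -3.30 and 1.26. With limma-voom and sample weights, and no library left out, they were 0.59, -0.91, -0.11, -1.90 and 1.45; the cause was not tested. Of the single fold changes of the 9 genes under all alternatives, the sign differed in 4 of 213 for Tet1KO against WT at 11 months, 32 of 206 at 3 months, 21 of 205 with age in Tet1KO, 2 of 206 with age in WT and 11 of 197 for the difference. Of the 10 closest genes, 1 was shared with Spearman's rho and 4 without the 2 libraries; the cause was not tested. Counting error limits Catsper1 most, at 0 to 52 counts per library.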
